A study of Mus musculus with 5 samples.

Results

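Antisense RNAs are transcribed from the strand opposite another gene, so that part of their sequence is the reverse complement of that gene's RNA. Many begin near the start of a coding gene and run away from it or across it, and some act on that gene, as Tsix does on Xist in X inactivation. Ribosome profiling (RIBO-seq) sequences the short pieces of RNA that a ribosome shields from nuclease. A read on an antisense transcript can mark a ribosome on that RNA, provided that its strand is known.

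The transcripts described here were those that Gencode types as antisense, other than Tug1, Kcnq1ot1 and the Snhg genes, whose reads came to 1 CPM (counts scaled to the depth of the library) or more in any of 5 libraries. They numbered 663 transcripts of 504 genes, out of 3942 transcripts of that type and 135276 transcripts in all. They were thus selected on their measured level, and 86 reached 1 CPM only in standard RIBO-seq and 47 only in AHARIBO RIBO-seq. At the threshold, Gm16212 and Gm16000 entered with 9 counts in standard replicate 1 (1.01 CPM), and Gm38804 and Gm26810 stayed out with 10 counts in AHARIBO replicate 2 (0.999 CPM).

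All libraries came from 46C mouse embryonic stem cells (mESCs) grown with serum and the self-renewal factor LIF and labelled untreated, and every lysate was digested with RNase I for 45 min after the elongation inhibitor cycloheximide. Standard RIBO-seq (3 biological replicates) collected ribosomes by spinning the lysate through 30% sucrose. For AHARIBO RIBO-seq (2 biological replicates), cells take up the methionine analog L-azidohomoalanine, and ribosomes are pulled down on beads through the nascent peptides that carry it. Fragments of 25 to 35 nt were sequenced in both, and the comparison asks which antisense transcripts are recovered differently when ribosomes are caught by their peptide.

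The counts of a library summed to 6403651 to 11150527 over all transcripts after removal of duplicates, and 3 counts were worth 0.262 to 0.476 CPM. The 8 embryonic stem cell markers had mean levels of 49.2 to 246.7 CPM, whereas 1 of 4 fibroblast and 1 of 4 endoderm markers reached a mean of 1 CPM. Of the 4 neuron markers 3 did, the highest at 34.9 CPM.

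Most of the antisense transcripts lay exon to exon with a coding gene. Of the 663, 620 (93.5%) overlapped an exon of a coding gene on the other strand, against 44.5% of the antisense-annotated transcripts below 1 CPM. Another 19 overlapped only the span of such a gene and 24 overlapped none. For each transcript the opposite gene was the one with the longest exon overlap (102 overlapped the span of more than 1 coding gene), and its most abundant transcript with a coding sequence gave the place of the overlap. The place of overlap was examined after the levels had been seen. The exons of 196 transcripts covered the start codon of the opposite gene and 305 covered only later coding sequence. A further 68 covered only the 5′ UTR and 30 only the 3′ UTR.

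The stretches below show what such an overlap looks like, for transcripts on which the results turn. Each is the strand of the antisense transcript, 5′ to 3′ (Gencode M21, GRCm38), and all of it lies within the coding sequence of the opposite gene. Capitals mark the complement of the opposite start codon, and Gm19553, which begins past the start codon of Pou5f1, has none.
Gm17092, opposite Hnrnpd, chr5:99978565-99978624, plus strand: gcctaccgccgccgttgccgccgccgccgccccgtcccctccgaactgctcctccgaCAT
Notumos, opposite Notum, chr11:120660279-120660338, plus strand: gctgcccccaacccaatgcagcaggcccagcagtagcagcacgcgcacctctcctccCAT
Gm20633, opposite Hist2h2aa1, chr3:96245581-96245640, minus strand: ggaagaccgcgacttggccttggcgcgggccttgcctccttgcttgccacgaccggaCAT
Gm10143, opposite Fen1, chr19:10201019-10201078, plus strand: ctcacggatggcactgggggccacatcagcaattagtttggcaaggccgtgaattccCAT
B930036N10Rik, opposite Alyref2, chr1:171503657-171503716, minus strand: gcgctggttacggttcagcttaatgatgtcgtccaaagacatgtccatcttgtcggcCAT
Gm19553, opposite Pou5f1, chr17:35509103-35509162, minus strand: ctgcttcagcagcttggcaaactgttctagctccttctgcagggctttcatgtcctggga

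The most abundant antisense transcripts lay opposite strongly translated coding genes, and the highest were opposite replication-dependent histone genes, whose proteins package new DNA. Gm20628, a single exon of 3215 nt on chromosome 3 (96267075 to 96270289), contains the reverse complement of the whole coding sequence of the H3 gene Hist2h3b. It had 327.2, 304.1 and 380.3 CPM in the standard replicates and 240.1 and 295.3 CPM in the AHARIBO replicates. Every AHARIBO value was below every standard value. Gm20632 and Gm20633 lie opposite the H2A genes Hist2h2aa2 and Hist2h2aa1 and had mean levels of 144.6 CPM each. Their counts were almost the same in every library. Gm20632 had 1404, 1269, 1158, 1200 and 1372, and Gm20633 had 1405, 1268, 1158, 1200 and 1370. Whether they hold the same reads was not tested. Gm47428, opposite the ferritin light chain gene model Ftl1-ps1, followed at 114.4 CPM. Next came 4930558J22Rik, opposite the H4 gene Hist1h4b, at 92.0 CPM, and Gm19553, opposite the pluripotency factor Pou5f1, at 59.5 CPM. Gm45774, opposite the metallothionein gene Mt2, had 56.4 CPM, and Gm17638, opposite the initiation factor subunit gene Eif3d, had 37.8 CPM. Below these the levels dropped fast. The median transcript had 2.17 CPM, 62 had at least 10 CPM, and the 10 most abundant genes took 29.8% of the summed CPM.

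**Figure D1:**
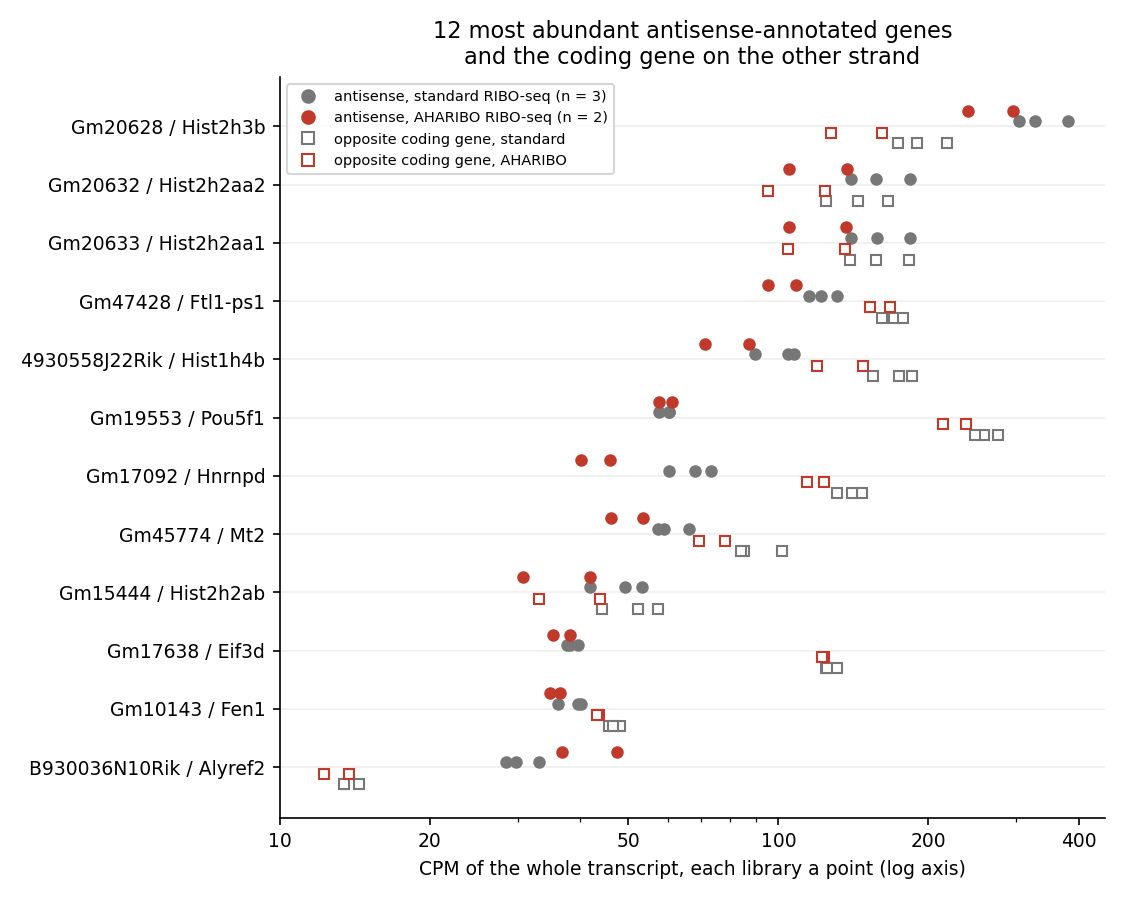
CPM of the 12 most abundant antisense-annotated genes (filled circles) and of the most abundant transcript of the coding gene opposite (open squares) in 3 standard (grey) and 2 AHARIBO (red) libraries, on a log axis; values are per whole transcript and not per length. Circles and squares lie at almost the same CPM for Gm20633 and Hist2h2aa1, and far apart for Gm19553 and Pou5f1, where 288 of 1056 nt of coding sequence are covered.

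In several pairs where the whole coding sequence was covered, the antisense transcript and the coding gene had nearly equal read counts. Gm20633 had 1405, 1268 and 1158 counts in standard replicates 1 to 3 and 1200 and 1370 in AHARIBO replicates 1 and 2. Hist2h2aa1 had 1401, 1264 and 1150 counts, then 1193 and 1363, in the same libraries. The coding sequence of Tspyl4, a nucleosome assembly protein gene, lies wholly opposite Gm47512. Gm47512 had 19, 25 and 17 counts in the standard replicates and 24 and 24 in the AHARIBO replicates, and Tspyl4 had 20, 25 and 17, then 26 and 24. Fen1, which encodes a flap endonuclease of DNA replication, had 429, 414 and 294 counts, then 499 and 433, and Gm10143 opposite it had 359, 328 and 250, then 398 and 365. Gm20628 lies opposite both Hist2h3b and the H2B gene Hist2h2bb. It had 2921, 2755 and 2397 counts in the standard replicates and 2744 and 2957 in the AHARIBO replicates, Hist2h3b had 1692, 1571 and 1375, then 1455 and 1615, and Hist2h2bb had 1070, 1000 and 892, then 1092 and 1156. In all, 10 transcripts of 8 genes contained a whole coding sequence. For the 5 of them whose coding transcript had at least 5 CPM, those of Gm20628, Gm20632, Gm20633 and Gm10143, the ratio of their CPM to that of the coding transcript ran from 0.824 to 1.78, the latter for Gm20628 against Hist2h3b alone. The coding transcripts of the other 5 had 2.47 CPM or less, where the level for inclusion bears on the ratio, and Gm47512 is one of these. The methods state that reads antisense to the transcripts were removed. From counts alone, ribosomes on an antisense RNA and reads of the coding RNA assigned to the other strand cannot be told apart.

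For transcripts that cover only part of a coding sequence a yardstick was used. For this, the CPM of the coding transcript was multiplied by the share of its coding sequence that the antisense exons cover, which is the level that part would have if reads lay evenly along the coding sequence. Transcripts with a low yardstick were included more readily if they stood above it, although some lay below, as Gm34678 at 1.24 CPM against 2.39 CPM. The ratio is therefore summarised only for the 85 with a yardstick of at least 5 CPM, all of which were included. Their median ratio of antisense CPM to yardstick was 0.862, and 69 (81.2%) were within 2-fold. Across those 85 transcripts the log2 values had a Pearson r of 0.84, as a description only, since the points share libraries, genes and sequence. For Gm19553 the yardstick was 67.3 CPM and the level 59.5 CPM. For Gm17638 they were 47.6 and 37.8 CPM. Of the annotated antisense transcripts with a yardstick of 1 to 5 CPM, 264 of 290 (91.0%) reached 1 CPM, as did 111 of 318 (34.9%) with 0.25 to 1 CPM and 41 of 672 (6.10%) with less than 0.25 CPM.

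**Figure D2:**
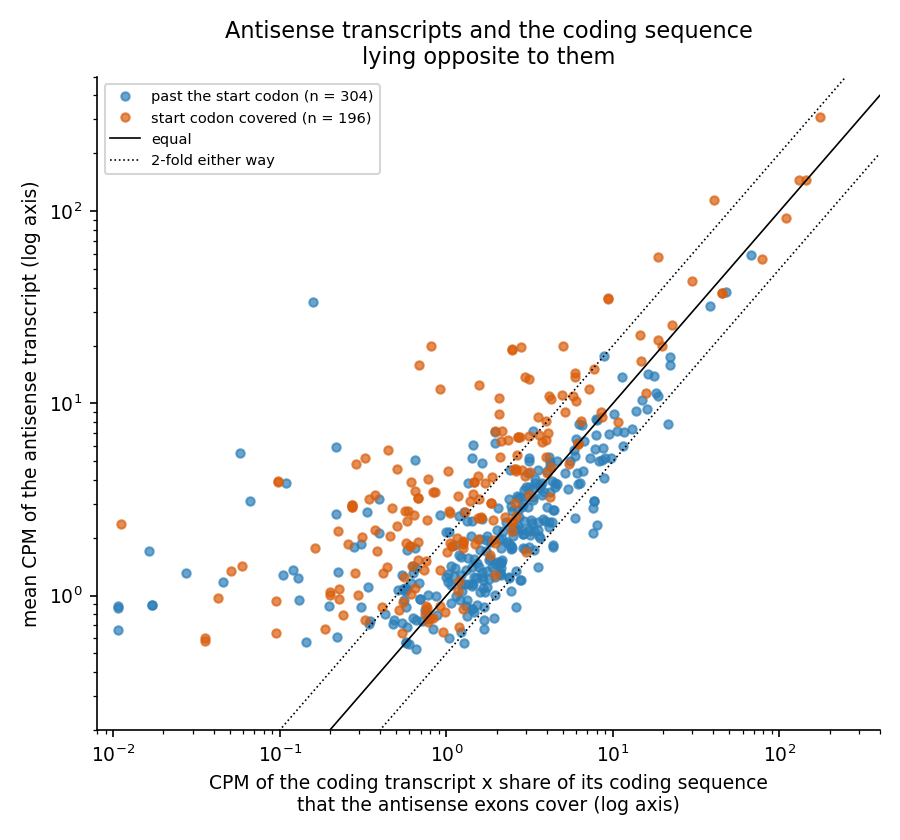
Mean CPM over 5 libraries of 500 antisense transcripts (y) against the CPM of the opposite coding transcript times the covered share of its coding sequence (x), both log axes; 1 transcript with x at or under 0.01 is not drawn. At low x the level for inclusion favoured transcripts above the line. At x of at least 5 CPM the median ratios were 1.15 for start codon transcripts (orange) and 0.705 for those past it (blue).

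Some transcripts stood well above the yardstick. Gm17092 covers the first 151 of 1065 nt of the coding sequence of Hnrnpd, an AU-rich element binding protein gene, and had 57.5 CPM against a yardstick of 18.6 CPM. B930036N10Rik, opposite the mRNA export factor gene Alyref2, had 35.1 CPM against 9.37 CPM. Tomm6os had 33.9 CPM, while Prickle4, the coding gene with which its exons overlap most, had a mean of 0.235 CPM. Its exons also meet those of Tomm6, a mitochondrial import gene, which had a mean of 48.3 CPM. Gm29514, which meets only the 5′ UTR of Brinp3, had 13.8 CPM where Brinp3 had 1 count in all 5 libraries together. Of the 30-nt windows of Gm29514, 11.2% also occur in the coding gene Hexdc on the same strand, so reads of the 2 cannot be fully told apart. Per kb of the whole transcript, which is another scale than the yardstick, 1600020E01Rik had 1.75 CPM per kb against 83.5 CPM per kb for Pcbp1, an RNA-binding protein gene of which it meets the 5′ UTR alone. D430001F17Rik had 2.83 CPM per kb and Atp5o, an ATP synthase subunit gene, 84.2 CPM per kb, but it covers only 36 of 639 nt of coding sequence and its 5.25 CPM lay above the yardstick of 3.98 CPM.

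The antisense transcripts took a smaller share of reads in AHARIBO RIBO-seq. They received 0.378%, 0.359% and 0.380% of the summed counts of the standard replicates and 0.315% and 0.344% of those of the AHARIBO replicates. The means were 0.372% ± 0.012 (SD, n = 3) and 0.329% ± 0.021 (SD, n = 2). A read matching several transcripts appears to be counted on each, so these shares and the ratios below do not count separate reads. The groups did not overlap, and the two-sided exact permutation test over libraries gave p = 0.1, the smallest that 10 splits allow. Over all transcripts annotated antisense, without the level filter, the shares were 0.400%, 0.382% and 0.408%, then 0.340% and 0.371%. With 1 transcript per gene they were 0.320%, 0.304% and 0.326%, then 0.264% and 0.290%. Per 100 reads of the opposite coding genes, taken as the sum over their most abundant transcripts, the antisense transcripts had 25.3, 23.7 and 25.9 reads in the standard replicates and 20.8 and 23.2 in the AHARIBO replicates. The means were 24.9 ± 1.13 (SD, n = 3) and 22.0 ± 1.69 (SD, n = 2), and the two-sided exact permutation p was 0.2. Summed over all transcripts of the coding genes the values were 6.92, 6.41 and 7.08, then 5.55 and 6.27. With duplicates kept the groups overlapped, at 33.6 to 36.1 and 31.2 to 36.4 reads (exact permutation p = 0.7). Duplicates made up 37.5% to 39.9% of the standard and 46.8% to 47.8% of the AHARIBO reads on the transcripts not opposite histone genes, against 43.3% to 43.8% and 44.9% to 47.7% over all transcripts.

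Transcript by transcript, more antisense transcripts were lower than higher in AHARIBO RIBO-seq. By edgeR's quasi-likelihood test, 60 of 663 (9.05%) had an adjusted p below 0.05, against 4.51% of the 66972 transcripts tested. Of these, 48 were lower (7.24%, against 2.24% of all tested) and 12 were higher (1.81%, against 2.27% of all tested). Without AHARIBO replicate 1 the calls were 5 higher and 5 lower. The median log2 fold change, AHARIBO over standard, was -0.15 over the antisense transcripts and 0.00 over all tested, and 430 of the 663 (64.9%) were below 0 against 49.7% of all tested. These values include the 86 transcripts that reached 1 CPM only in standard RIBO-seq and the 47 that did so only in AHARIBO RIBO-seq. With a mean of at least 1 CPM as the filter, 41 of 536 were called lower and 8 higher, and 4.48% of all tested were called. Of the 60, 57 had a mean level of at least 1 CPM, all 48 lower ones included. Of the 48, Gm16272 and Evx1os fell by more than 2-fold. The median over 436 lincRNA transcripts at 1 CPM was 0.02, with 26 higher and 11 lower. Over 44 bidirectional promoter lncRNA transcripts it was -0.40, with 1 higher and 4 lower. DESeq2 called 3 of the antisense transcripts, all lower, against 0.406% of all tested, but it gave an adjusted p to only 46 of the 663.

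The lower transcripts were mostly those that covered the beginning of the opposite coding transcript. Of the 196 over a start codon, 33 were called lower and 2 higher, and 162 were below 0, with a median log2 fold change of -0.37. The coding genes opposite them had a median of -0.03 over 191 pairs, and 153 of those 191 antisense transcripts had a lower fold change than their coding gene. The value of a coding gene is that of its whole most abundant transcript, of which the antisense exons may meet only a part. The change of coding reads within the part that is met was not tested. Among the 68 over the 5′ UTR alone, 7 were called lower and none higher by edgeR (14 and 0 at an unadjusted p below 0.05, and none of the 6 to which DESeq2 gave an adjusted p), with a median of -0.29 against -0.03 for the coding genes. The 7 became 1 with 1 transcript per gene, 1 with duplicates kept (and 1 higher), 3 with library size, 4 with a mean filter, 2 without standard replicate 1 and 0 without AHARIBO replicate 1, while the median stayed between -0.33 and -0.22. Among the 305 that began past the start codon, 3 were called lower and 5 higher, with a median of -0.03 against 0.00. The 30 over the 3′ UTR alone had a median of 0.02, with 2 lower and 3 higher, and those 3 were included only through AHARIBO RIBO-seq. Their direction was not stable: with a mean of 1 CPM as the filter the median was -0.18 over 17 transcripts with a single call, lower, and it was -0.28 with duplicates kept and -0.15 without AHARIBO replicate 1. The remaining 3 lower and 2 higher were among 39 transcripts that shared no exon with the coding transcript used.

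The change also graded with distance into the coding sequence. Transcripts whose cover began at nt 2 to 100 of the coding sequence had a median log2 fold change of -0.16 (41 transcripts), those at nt 101 to 500 had -0.07 (88 transcripts), and those beginning later had 0.08 (176 transcripts). Summed CPM over the start codon divided by summed CPM past it was 2.09, 1.92 and 2.18 in the standard replicates and 1.61 and 1.82 in the AHARIBO replicates. No AHARIBO value reached a standard value (two-sided exact permutation p = 0.2, where 0.1 is the smallest possible). Without the transcripts opposite histone genes the ratios were 1.35, 1.25 and 1.32, then 1.07 and 1.15 (exact permutation p = 0.1). The same ratio for the opposite coding genes was 0.612, 0.593 and 0.637, then 0.561 and 0.597, and there the groups overlapped. The transcripts over the start codon had a median GC content of 55.3%, length of 1520 nt and level of 3.14 CPM, and those past it 51.4%, 947 nt and 1.98 CPM. At a mean of at least 5 CPM, 29 of 65 over the start codon were called lower and 2 higher, and 61 were below 0. Their median was -0.40 against -0.12 for their coding genes. At that level, 3 of 53 past the start codon were called lower and none higher, and 42 were below 0. Their median was -0.09 against -0.14. The part of GC content, length and level in the result was not tested. Left without AHARIBO replicate 1, 4 of the start codon transcripts were called lower, and without standard replicate 1, 11 were, while their median log2 fold change ran from -0.45 to -0.22 over the 5 libraries left out in turn.

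**Figure D3:**
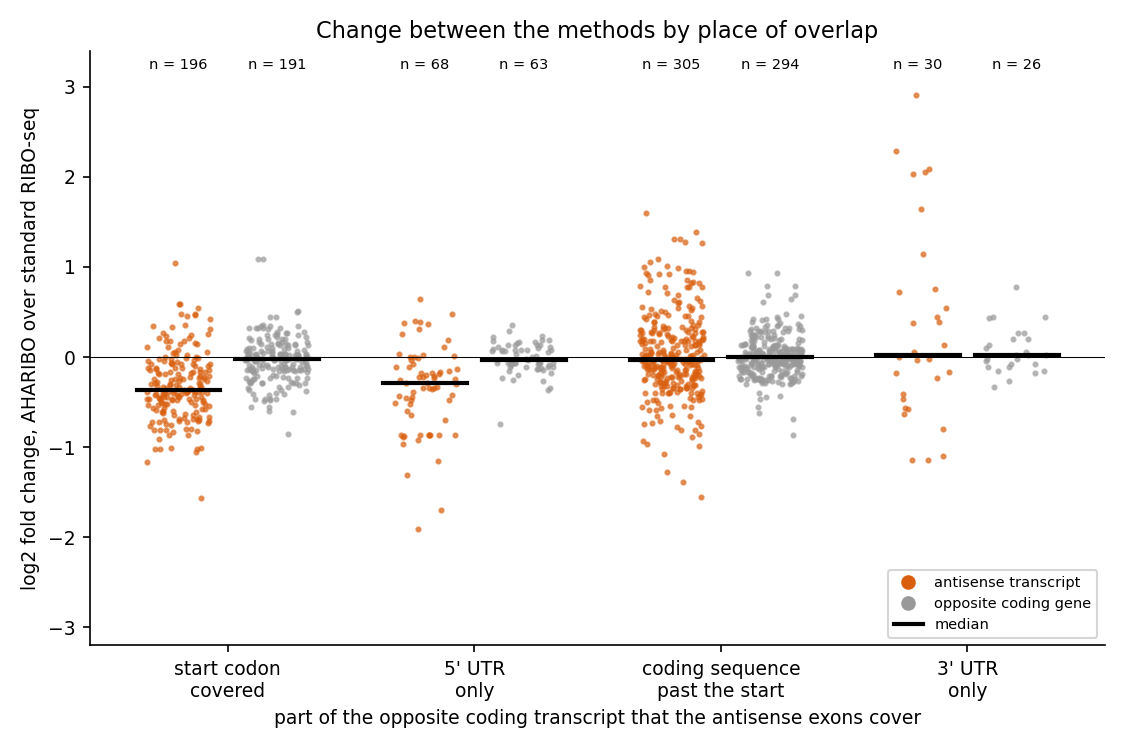
log2 fold change, AHARIBO over standard RIBO-seq, of each antisense transcript (orange) and of the whole most abundant transcript of the coding gene opposite (grey), by the part of the coding transcript that the antisense exons cover; bars are medians and n counts transcripts. The orange medians lie at -0.37 for the start codon and -0.29 for the 5′ UTR and near 0 past the start codon, while all grey medians lie near 0.

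Gm17092 was called lower in AHARIBO RIBO-seq. It had 73.4, 60.3 and 67.9 CPM in the standard replicates and 40.2 and 46.0 CPM in the AHARIBO replicates. Both AHARIBO values were well below all standard values, with a log2 fold change of -0.64 (SE 0.09, edgeR adjusted p = 1.66e-06). Hnrnpd opposite it had a log2 fold change of -0.23 (SE 0.08, adjusted p = 0.082). Chosen after its values were seen, Gm20512, which covers the start codon of the mitochondrial import pore gene Tomm40, had 28.1, 23.5 and 24.9 CPM against 14.8 and 15.7 CPM. Its log2 fold change was -0.75 (SE 0.11) and that of Tomm40 -0.28 (SE 0.08). Appbp2os, singled out in the same way, covers only 35 nt of coding sequence of Appbp2 and fell by 0.71 on the log2 scale (SE 0.13), where Appbp2 had 0.05 (SE 0.09). The 5 histone-opposite transcripts fell together with their coding genes, with medians of -0.40 and -0.41. Gm20632 and Gm20633 among them had almost the same counts. Gm20633 had -0.40 (SE 0.09) and Hist2h2aa1 -0.41 (SE 0.09). Without AHARIBO replicate 1 none of the 5 was called by edgeR, with log2 fold changes of -0.22 to -0.19 and adjusted p of 0.36 to 0.58, and DESeq2 called none of them. Of the 48 called lower, 12 lay opposite a coding gene also called lower, 34 opposite a gene not called and 2 opposite a gene that was not tested. Among all 607 antisense transcripts whose coding gene was tested, 18 lay opposite one called lower.

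Among transcripts called by edgeR with no overlap between the groups, the 5 largest falls were Evx1os, Gm16272, 4732440D04Rik, Notumos and Gm10366, at 1 transcript per gene. Gm16272, opposite the respiratory complex I subunit gene Ndufb2, had 7.84, 5.85 and 5.87 CPM in the standard replicates and 2.01 and 3.50 CPM in the AHARIBO replicates. Its log2 fold change was -1.28 (SE 0.22), and Ndufb2 fell by 0.40 (SE 0.11). Notumos lies opposite Notum, which encodes a lipase that inactivates Wnt proteins, and had 7.51, 8.39 and 8.57 CPM against 4.46 and 4.69 CPM. Notumos fell by 0.83 (SE 0.17) and Notum by 0.56 (SE 0.14) on the log2 scale. Gm10366, opposite the lipoprotein receptor gene Lrp10, fell by 0.81 (SE 0.20), a call kept in 4 of 8 alternatives, and 4732440D04Rik, opposite the autophagy gene Rb1cc1, by 0.86 (SE 0.26), a call kept in 2 of 8 alternatives. Evx1os, antisense to the mesoderm homeobox gene Evx1, had 0.784 and 0.883 CPM in standard replicates 1 and 2, 4.44 CPM in standard replicate 3, and 0.612 and 0.300 CPM in the AHARIBO replicates. Its log2 fold change of -1.91 (adjusted p = 0.044) thus rested on 28 counts in 1 library, and without that library it no longer reached the level to be tested.

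The largest rises were of scarce transcripts. Gm44170, whose 549 nt are all opposite exons of Sec61a1, the channel subunit of the endoplasmic reticulum translocon, had 2, 2 and 1 counts in the standard replicates and 18 and 17 in the AHARIBO replicates. These counts correspond to 0.224, 0.221 and 0.159 CPM against 1.58 and 1.70 CPM, while Sec61a1 had a log2 fold change of 0.03 (SE 0.08). Gm13610, opposite Prrc2b, had 3, 1 and 2 counts against 15 and 12. A230087F16Rik, opposite the kinase gene Cdc42bpb, had 3, 2 and 4 counts against 17 and 17. These 3 reached 1 CPM only in AHARIBO RIBO-seq, so they were included through the group in which they are high and had to differ. Rab26os, which lies within the span of the small GTPase gene Rab26 and meets no exon of it, had 1.12, 1.32 and 0.952 CPM against 2.71 and 3.60 CPM, a log2 fold change of 1.43 (SE 0.31). Rab26 moved the other way, at -0.90 (SE 0.22, adjusted p = 0.011). Gm34678, opposite the ribosome biogenesis gene Utp23, rose by 1.31 (SE 0.40), a call kept in 1 of 8 alternatives. The most abundant riser was B930036N10Rik, with 29.8, 28.5 and 33.2 CPM against 36.8 and 47.4 CPM, a log2 fold change of 0.47 (SE 0.10), where Alyref2 had -0.08 (SE 0.12). The value for B930036N10Rik was 2.31 with duplicates kept and 0.29 without AHARIBO replicate 2 (adjusted p = 0.11). It covers a start codon, like 33 transcripts that were called lower.

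**Figure D4:**
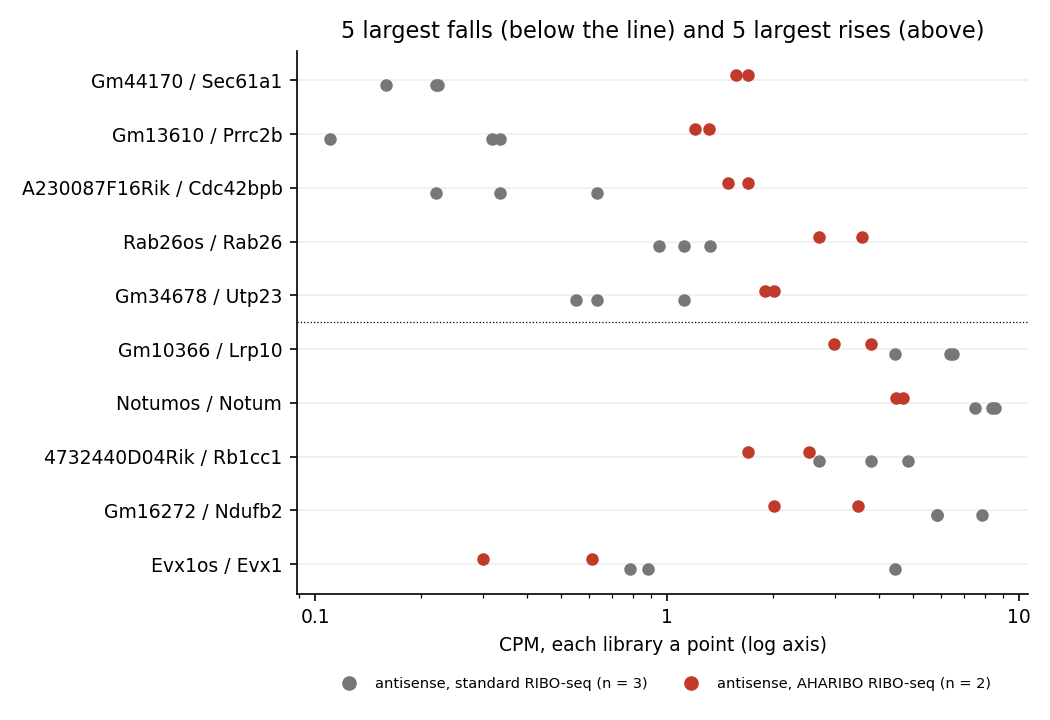
CPM in each library (log axis) of the 5 antisense genes with the largest fall and the 5 with the largest rise among those called by edgeR with no overlap between the 3 standard (grey) and 2 AHARIBO (red) libraries; the opposite coding gene follows the slash. All 5 risers had standard values of at most 1.32 CPM, and Evx1os has 1 standard library far from the other 2.

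Of 21 antisense-annotated genes on the gene lists, 6 (28.6%) were included, against 504 of 2804 (18.0%) of all genes of that type. Of the genes on the imprinting and X inactivation list, 4 were annotated antisense and 3 were included. Tsix had 0.224, 0.662 and 0.635 CPM in the standard replicates and 0.875 and 1.80 CPM in the AHARIBO replicates, with a log2 fold change of 1.38 (SE 0.55, adjusted p = 0.14), and shares 431 exon nt (13.2%) with Gm26992, a gene of the same strand. Nespas, antisense to Nesp in the Gnas locus, had 1.68, 3.09 and 1.90 CPM against 2.10 and 1.40 CPM. Igf2os, antisense to the growth factor gene Igf2, had a mean of 1.01 CPM. On the list of antisense RNAs of developmental transcription factors, 2 of 15 were included, Evx1os and Vax2os, the latter at a mean of 0.700 CPM with overlapping groups. The single antisense-annotated small RNA host, Dnm3os, was not. Uchl1os, known for raising translation of the ubiquitin hydrolase Uchl1, had 2.69, 1.99 and 3.65 CPM against 1.93 and 2.50 CPM. Apart from Evx1os, none of the 7 transcripts on the lists was called by edgeR, DESeq2 gave none of them an adjusted p, and 1 of them, of Tsix, had an unadjusted p below 0.05.

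By the class of the opposite gene, the histone set stood out in level. The 5 transcripts opposite replication-dependent histone genes ran from 43.4 to 309.4 CPM, and all 5 were called lower. Gm20632 and Gm20633 had almost the same counts in every library, so their calls may not be separate. The 12 opposite solute carrier genes ran from 0.911 to 15.8 CPM and the 11 opposite zinc finger genes from 0.788 to 25.6 CPM, and none of either was called by edgeR, while DESeq2 gave an adjusted p to 1 of each and called neither. At an unadjusted p below 0.05, 3 opposite solute carriers were lower and 3 opposite zinc finger genes higher. Of 3 opposite genes named as translation factors or related enzymes, 1 was called lower, Gm44264 opposite the selenocysteine elongation factor gene Eefsec. Opposite the pluripotency genes lay Gm19553, whose 57.7, 60.4 and 60.4 CPM against 57.7 and 61.1 CPM left no difference visible (log2 fold change 0.00, SE 0.08), and 1 transcript opposite Tbx3. Pou5f1 itself had -0.21 (SE 0.08, adjusted p = 0.11). No transcript lay opposite a Hox gene.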

How the data were processed

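The authors trimmed reads with Trimmomatic 0.36, removed rRNA and tRNA reads, aligned the rest to Gencode M17 transcripts with STAR and discarded antisense and duplicate reads. How reads matching several transcripts were counted is not given in the sources used here. Overlapping transcripts of Gm10143 had the same counts in every library (359, 328, 250, 398 and 365). A read thus appears to be counted on each transcript that it matches, and calls of transcripts of a gene can rest on the same reads. The deposited values are raw counts for each transcript, once with duplicates removed (used here) and once with them kept (an alternative). Of 135276 transcripts, 99.8% matched Gencode M21, which supplied gene types, exons and coding sequences on GRCm38.

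CPM used TMM factors. Transcripts with at least 1 CPM in 1 library were tested with edgeR 4.0.16 (R 4.3.3), quasi-likelihood, without a replicate block, and p-values were adjusted by Benjamini-Hochberg over all 66972. DESeq2 1.42.0 was an alternative. Standard errors were derived from the F statistic and are approximate. On simulated counts for this comparison (66972 transcripts), 200 transcripts were changed, drawn only from those above a minimum mean count. For these, edgeR recovered 89% of 2-fold and 100% of 4-fold changes, and DESeq2 65% and 98%. Changes below 2-fold and changes of scarcer transcripts were not simulated. Shares and ratios were compared by exact permutation over libraries (Python 3.11.15, scipy 1.17.1).

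Members, gene lists and tests were chosen with earlier results of these data known. Named were the 12 most abundant genes, the 5 largest rises and falls called with no overlap between groups, members of the gene lists, and the 5 highest and lowest ratios per kb to the opposite gene. The place of overlap was added after seeing the data. The paper's methods describe no molecular identifiers, and intervals and floors cover counting error only.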

Additional observations from a re-analysis of the deposited data

How the results depend on the processing

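The 60 calls became 3 with DESeq2, 34 with duplicates kept and 37 with 1 transcript per gene, and the 33 start codon transcripts called lower became 3, 19 and 22. Over all transcripts tested, 0.406%, 3.43% and 4.23% were called in these settings, against 4.51% in the main test. Without 1 library the 60 ran from 10 (without AHARIBO replicate 1) to 55, with 21 without standard replicate 1, and the 33 ran from 4 to 37, with 11 without standard replicate 1. In those 2 settings 0.770% and 1.76% of all transcripts tested were called. Standard RIBO-seq is described as run on input material, but which libraries share a lysate was not given in the sources used here. Deviations of AHARIBO replicate 1 from its group mean correlated with those of standard replicates 1 to 3 at 0.04, 0.08 and -0.10. With 2 AHARIBO libraries, replicate 2 has the same values with the sign reversed, so they cannot settle which libraries pair. A replicate block gave 45 and 25 calls, 39 of the 60 among them, and called 2.68% of all tested. The 5 transcripts opposite replication-dependent histone genes were not called with the block (adjusted p of 0.0501 to 0.34). Library size in place of TMM gave 49 calls, no filter 69, a mean filter 49, and leaving out transcripts opposite histone genes, those opposite H1f0, H1fx and H2afy included (added after seeing the data), 54. The first 3 of these settings called 4.49%, 3.07% and 4.48% of all transcripts tested. The share of reads differed by -0.04 percentage points, and by -0.06 to -0.03 without 1 library, and the reads per 100 of the opposite gene by -2.90, by -4.10 to -1.71 without 1 library, and by -0.89 with all transcripts of the coding genes summed. The ratio of start codon to later sums differed by -0.35, and by -0.45 to -0.24. These 3 kept their direction in every alternative run. Of the named transcripts, Gm17092 kept its call in all 9 alternatives and B930036N10Rik in 7 of 9, but Gm34678 kept it in 1 of 8, 4732440D04Rik in 2 of 8, A230087F16Rik in 3 of 8, Gm13610 and Evx1os in 3 of 7, Gm10366 in 4 of 8 and Gm20628 in 4 of 9. At 3 counts, differences below 0.262 to 0.476 CPM cannot be seen.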

Other observations

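Gm15564, which lies within the span of the ADP-ribosyltransferase gene Parp9 and meets no exon of it, was called higher although its groups overlapped. It had 7.51, 6.40 and 10.6 CPM in the standard replicates, 9.89 CPM in AHARIBO replicate 1 and 28.7 CPM in AHARIBO replicate 2, so that 1 library carried the difference. The edgeR log2 fold change was 1.24 (SE 0.21).

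Of the reads on antisense transcripts opposite histone genes, H1f0, H1fx and H2afy included, 77.4% to 80.9% were duplicates in the 5 libraries, with the groups overlapping. The values given for the histone-opposite transcripts are those after duplicates were removed, and the part of duplicate removal in their levels was not tested.

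By sequence, 547 of the 663 transcripts shared at least 10% of their 30-nt windows with the reverse strand of a coding transcript and 25 with a coding transcript of the same strand. None of those 25 was among the 60 called by edgeR. The longest open reading frame of the antisense transcripts had a median of 79 codons and a maximum of 282 codons.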
